A study of Mus musculus with 17 samples.

Results

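The genes of the lysosome were followed as 36 members: 19 that encode its hydrolases, their cofactors and its membrane proteins, and 17 of the vacuolar proton pump (V-ATPase), of which 16 encode subunits and 1, Atp6v0c-ps2, is a listed pseudogene counted from the reads of Atp6v0c. They were taken by gene symbol from a table of 24453 gene models, and all 36 were found. The values are RPKM, reads scaled to exon length and to library depth, in 13 polyA RNA-seq libraries of mouse macrophages. The series lists 17 samples, of which 4, made by GRO-seq, are not analysed here.

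The study asked how the jobs of individual AP-1 proteins, a family of DNA-binding dimers, differ in macrophages. Immortalised bone marrow-derived macrophages (iBMDMs) came from C57Bl/6EiJ bone marrow transformed with BRAF(V600E) and Myc, which the control cells carried too, and were used at passages 3 to 8. CRISPR guides aimed at Atf3 gave the Atf3KO line, those at Jun the JunKO line and those at Jund the JunDKO line, beside a Scramble control, and all are labelled vehicle. The titles of the Scramble libraries, and their columns, read zsGreen in place of Scramble or vehicle, so their group rests on the genotype and treatment labels. There were 2 libraries for each of the 4 lines. Thioglycollate-elicited macrophages (TGEMs) are primary cells washed from the mouse peritoneum, here of mice described as male and aged 8 weeks. The labels give 3 days of culture, whereas the methods put 3 days between injection and collection and treat the cells on the day after plating. C57Bl/6EiJ TGEMs gave 1 vehicle library and 1 library after 1 h of KLA (Kdo2 lipid A), which activates TLR4. Balb/cJ TGEMs gave 1 vehicle library and 2 KLA libraries. For the edited lines, Cas9-expressing iBMDMs received a lentivirus with 2 guides per target and were sorted for its fluorescent marker, with no cloning step described. The methods speak of 2 replicate experiments for the knockouts without saying whether these were separate cultures, so p-values measure the spread between these libraries, which may be technical.

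Depth spanned 1553296 to 18444411 reads, with both extremes in JunDKO, and the second Atf3KO library carries a later label date than the other iBMDM libraries. Macrophage markers were present in every library, 10 of 10 at 1 RPKM or more in each group. Atf3 stood at 154 and 169 RPKM in the libraries labelled Atf3KO and at 80.7 and 77.4 in Scramble. Jun stood at 26.2 and 20.5 RPKM in JunKO against 17.6 and 18.5, and Jund at 6.94 and 6.07 in JunDKO against 9.19 and 8.33. RNA of an edited gene need not fall, so these levels do not check the labels. Western blots made for that purpose are not analysed here, and Atf3KO stands below for the libraries so labelled. All libraries are labelled male, and Xist had 863 to 8676 reads in TGEMs and 0 to 3 in iBMDMs. The TGEM reads are at odds with that label, and the sex of those mice was not settled.

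Lysosomes digest what a macrophage takes up. Their hydrolases work at acid pH, which the V-ATPase maintains: the V1 sector on the cytosolic face splits ATP, and the V0 sector in the membrane carries protons inward. Many lysosomal genes share a palindromic promoter element around the E-box CACGTG, known as the CLEAR element, which is bound by the factor TFEB and its relatives.

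The letters of this element were counted in the members' promoters. RefSeq promoters on build GRCm38.p6, 250 bases before to 50 after a gene start, were matched for 28 of 36 members. Asah1, Npc1, Atp6v0c-ps2, Atp6v0d2, Atp6v1b2, Atp6v1c1, Atp6v1g1 and Atp6v1h were not matched. CACGTG stood in 9 of the 28 promoters (32.1%) and in 7.15% of all 32851 promoters of that length. The longer palindrome TCACGTGA, which contains it, stood in 5 of 28 (17.9%) and in 0.974% of all. The AP-1 site, TGACTCA or its complement TGAGTCA, stood in 2 of 28 (7.14%), those of Glb1 and Neu1, and in 5.2% of all. These motifs were searched on both strands, and a match describes the letters only.

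The 5 promoters with the longer palindrome are printed because they hold the full palindrome. They belong to a glycosidase, a membrane channel, a pair of genes of the pump's membrane sector and its catalytic subunit, and no cofactor, accessory or lipid and protein breakdown gene with a matched promoter is among them. Lamp1 is added for its 4 copies of CACGTG, and Glb1 because an AP-1 word and an E-box share bases in it. Each runs from 250 bases before to 20 after the gene start, 5′ to 3′ on the gene's strand, with all matches to the 3 motifs in capitals.
Gla, chrX:134600986-134601255, minus strand: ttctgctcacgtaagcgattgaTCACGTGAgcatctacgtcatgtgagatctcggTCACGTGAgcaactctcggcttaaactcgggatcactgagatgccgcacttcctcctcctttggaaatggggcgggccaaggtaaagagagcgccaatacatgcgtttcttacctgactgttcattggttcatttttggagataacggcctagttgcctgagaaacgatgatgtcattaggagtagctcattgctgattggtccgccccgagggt
Mcoln1, chr8:3500269-3500538, plus strand: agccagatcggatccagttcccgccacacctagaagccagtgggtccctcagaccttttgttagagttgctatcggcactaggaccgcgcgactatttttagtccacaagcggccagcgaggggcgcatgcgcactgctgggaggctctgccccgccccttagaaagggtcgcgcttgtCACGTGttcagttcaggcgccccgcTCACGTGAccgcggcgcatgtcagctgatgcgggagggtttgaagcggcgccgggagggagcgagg
Atp6v0d1, chr8:105566045-105566314, minus strand: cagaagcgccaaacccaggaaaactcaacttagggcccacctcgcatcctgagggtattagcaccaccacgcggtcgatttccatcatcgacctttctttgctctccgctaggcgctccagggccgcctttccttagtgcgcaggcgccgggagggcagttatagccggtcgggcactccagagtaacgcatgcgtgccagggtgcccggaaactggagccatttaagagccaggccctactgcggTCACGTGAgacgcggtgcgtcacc
Atp6v0e, chr17:26676146-26676415, plus strand: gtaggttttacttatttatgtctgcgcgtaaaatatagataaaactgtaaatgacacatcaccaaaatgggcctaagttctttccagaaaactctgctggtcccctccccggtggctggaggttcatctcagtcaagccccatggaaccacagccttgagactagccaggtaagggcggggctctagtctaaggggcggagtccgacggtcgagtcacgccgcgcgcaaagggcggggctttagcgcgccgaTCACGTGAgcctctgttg
Atp6v1a, chr16:44139240-44139509, minus strand: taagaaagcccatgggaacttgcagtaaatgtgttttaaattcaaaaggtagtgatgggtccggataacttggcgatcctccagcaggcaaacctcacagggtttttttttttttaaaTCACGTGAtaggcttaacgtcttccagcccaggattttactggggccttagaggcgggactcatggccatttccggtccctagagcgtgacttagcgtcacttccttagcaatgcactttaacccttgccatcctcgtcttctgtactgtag
Lamp1, chr8:13158911-13159180, plus strand: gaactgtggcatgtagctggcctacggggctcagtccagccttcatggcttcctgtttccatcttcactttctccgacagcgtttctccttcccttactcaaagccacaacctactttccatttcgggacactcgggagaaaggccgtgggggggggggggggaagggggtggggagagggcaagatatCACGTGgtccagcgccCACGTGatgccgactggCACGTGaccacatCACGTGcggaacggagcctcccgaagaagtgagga
Glb1, chr9:114400828-114401097, plus strand: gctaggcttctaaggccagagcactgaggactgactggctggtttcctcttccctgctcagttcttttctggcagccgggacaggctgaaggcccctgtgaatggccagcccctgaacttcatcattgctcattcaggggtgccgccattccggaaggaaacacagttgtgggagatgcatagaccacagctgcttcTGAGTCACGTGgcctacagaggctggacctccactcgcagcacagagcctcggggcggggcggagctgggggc
The palindromes of Gla began 228 and 195 bases before the start, and that of Atp6v1a 132 bases before it. Those of Mcoln1 and Atp6v0d1 began 46 and 4 bases before the start, and that of Atp6v0e at base 3 of the transcript. In Lamp1 the E-boxes began 61, 45, 28 and 15 bases before the start. The AP-1 word of Glb1 began 53 bases and its E-box 48 bases before the start. The RefSeq start lay 240 bases from that of the gene model followed here for Atp6v1a, 26 for Lamp1, 24 for Atp6v0d1 and 0 for the other 4 genes printed.

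In the Scramble iBMDMs the members' mean levels ran from 1.35 to 894 RPKM. Psap, the precursor of the saposins that present lipids to hydrolases, was highest at 967 and 821 RPKM in Scramble. Lamp1, a coat protein of the lysosomal membrane, followed at 515 and 424. The lysosomal acid lipase gene Lipa stood at 347 and 368, and the progranulin gene Grn at 306 and 248. The ranges of Lipa and Grn did not overlap, whereas those of Lamp2 (232 and 233 RPKM) and Laptm5 (243 and 205 RPKM) did. The lowest hydrolases were Gla, Gaa and Neu1, with means of 22.1, 13.4 and 10.9 RPKM. Lowest of all was Atp6v0d2, a V0 subunit known from osteoclasts and macrophages, at 0.831 and 1.88 RPKM.

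**Figure D1:**
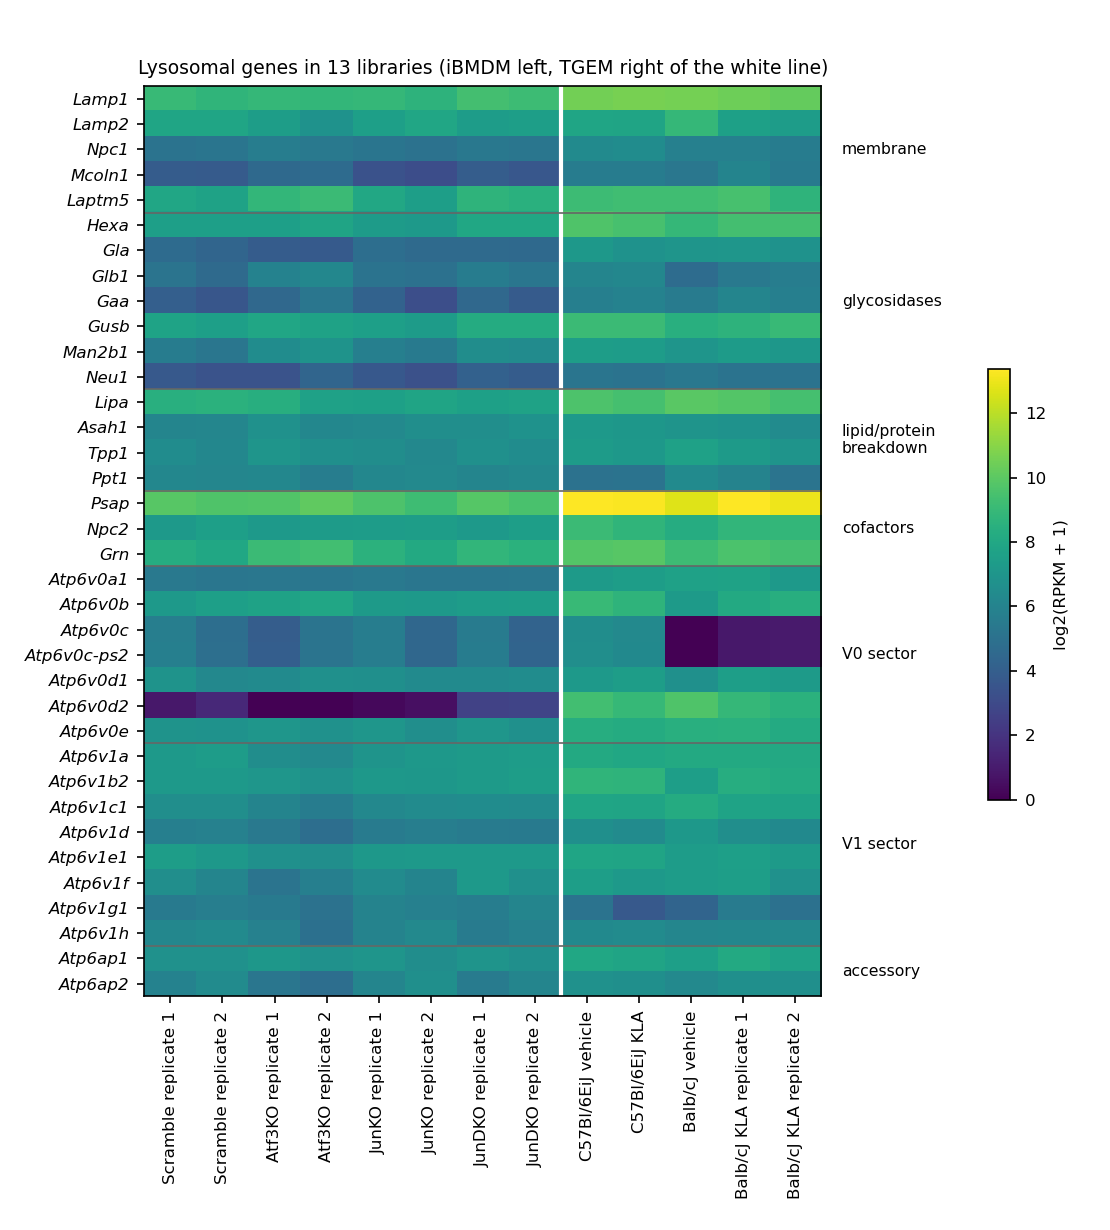
Level of the 36 members in the 13 libraries, as log2(RPKM + 1) in colour, with members in rows by role and libraries in columns. Psap is the brightest row in TGEMs, Atp6v0d2 is dark in the iBMDM libraries and bright in TGEMs, and Atp6v0c with Atp6v0c-ps2 is dark in the 3 Balb/cJ libraries.

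The widest contrast was between cell types. Of 36 members, 28 were higher in C57Bl/6EiJ vehicle TGEMs than in Scramble iBMDMs at a limma adjusted p under 0.05, 0 were lower and 8 did not pass. Among all 10929 models tested, 16.1% were higher and 30.2% lower. The median log2 fold change, on the log2(RPKM + 1) scale as everywhere below, was 1.28 over the members and −0.28 over all models. It was fitted on all 13 libraries with strain and KLA as terms, so it can differ from the ratio of the values printed beside it. With library medians made equal the medians were 1.54 and −0.02, and 29 members were higher beside 21.9% of all models, with 22.7% lower. Spearman's rho between the GC percent of the transcript and the log2 fold change was 0.42 over 35 members and 0.41 over 10814 models. With the GC trend of each library removed, 32 members were higher and 0 lower, beside 20.8% and 22.4% of all models. The summed RPKM of the members, Atp6v0c-ps2 left out, was 16169 to 21367 in the 5 TGEM libraries and 4151 to 5497 in the 8 iBMDM libraries. In 19 of 36 members each TGEM library, of either strain and treatment, lay above each iBMDM library, against 7.71% of all models. Cell source, culture and label date cannot be told apart here. Xist reads differ with this contrast too, and Gla, Lamp2, Atp6ap1 and Atp6ap2 are X-linked. Without the C57Bl/6EiJ vehicle library that arm has no library of its own and is extrapolated from the other TGEM libraries, and 17 members were then higher and 1, Atp6v1g1, lower, beside 7.73% and 17.8% of all models (25.5% in either direction).

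Glycosidases, which cut sugars from glycoproteins and glycolipids, were all higher, 7 of 7, with a median log2 fold change of 1.88. Gla, the α-galactosidase, stood at 138 RPKM in the C57Bl/6EiJ vehicle library and 110.4 to 130.2 in the other TGEM libraries, against 24.5 and 19.7 in Scramble (log2 fold change 2.54 ± 0.22 SE, limma adjusted p = 1.02e-05). Its lowest TGEM value lay far above its highest iBMDM value of 27.7. Man2b1, the lysosomal α-mannosidase, read 174 RPKM against 48.8 and 37.0 (1.94 ± 0.24, limma adjusted p = 1.26e-04). Hexa, the α subunit of β-hexosaminidase, read 824 RPKM against 187 and 189 (1.93 ± 0.23, limma adjusted p = 8.19e-05). For Gla, Man2b1 and Hexa the 5 TGEM libraries did not overlap with the 8 iBMDM libraries. Glb1 passed against Scramble (1.01 ± 0.29, limma adjusted p = 0.0159) but overlapped with the edited lines. It stood at 68.2 and 72.5 RPKM in C57Bl/6EiJ TGEMs and at 25.1 to 49.1 in Balb/cJ TGEMs, all within the iBMDM range of 23.8 to 73.5.

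The 3 soluble cofactors and carriers were higher too. Psap reached 10672 RPKM in C57Bl/6EiJ vehicle TGEMs, 10112 with KLA, and 6778, 10635 and 8409.8 in Balb/cJ vehicle and KLA libraries, against 967 and 821 in Scramble (3.42 ± 0.28, limma adjusted p = 7.18e-06). It alone made up 41.9% to 52.6% of the members' summed RPKM in TGEMs and 14.4% to 20.8% in iBMDMs. Grn differed by 1.65 ± 0.25 (limma adjusted p = 3.84e-04), and Npc2, which hands cholesterol to Npc1, by 1.50 ± 0.27 (limma adjusted p = 0.00128).

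Among membrane proteins 4 of 5 were higher. Lamp1 stood at 1481 and 1580.2 RPKM in C57Bl/6EiJ TGEMs and at 1528, 1352 and 1210.1 in Balb/cJ TGEMs, against at most 666 in iBMDMs (1.76 ± 0.22, limma adjusted p = 1.32e-04). The exception was Lamp2, whose product serves in fusion and chaperone-mediated autophagy. With the GC trend removed it passed too, and 5 of 5 membrane proteins were higher. Lamp2 read 234 RPKM in the C57Bl/6EiJ vehicle library and 232 and 233 in Scramble (0.39 ± 0.36 with strain and treatment in the fit, limma adjusted p = 0.395). Mcoln1, a calcium channel, differed by 1.61 ± 0.27, Laptm5 by 1.44 ± 0.31 and Npc1, the cholesterol exporter, by 1.29 ± 0.21. Of the enzymes that break down lipids and proteins, Lipa, Asah1 and Tpp1 passed at 1.18, 1.12 and 1.07. Ppt1, which removes palmitate from proteins, read 31.5 and 32.7 RPKM in C57Bl/6EiJ TGEMs, 85.1, 61.9 and 34.5 in Balb/cJ TGEMs, and 72.0 and 68.5 in Scramble (−0.87 ± 0.35, limma adjusted p = 0.061). It shares 5.1% of its exonic bases with Cap1 on the opposite strand, and the strand setting of the counts was not given.

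**Figure D2:**
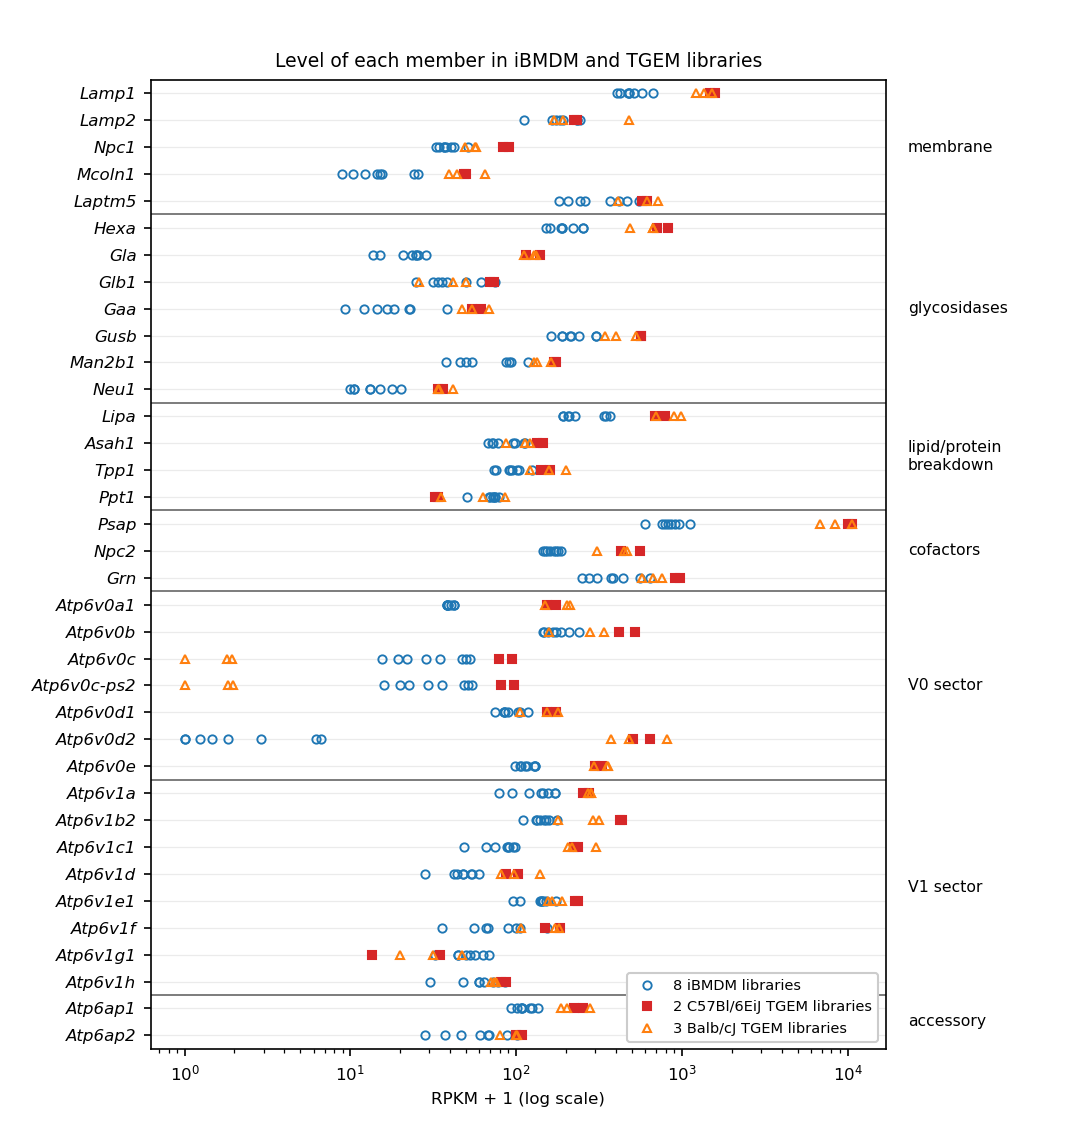
RPKM + 1 on a log scale for each member, with 1 point per library: blue circles for 8 iBMDM libraries, red squares for 2 C57Bl/6EiJ and orange triangles for 3 Balb/cJ TGEM libraries. Atp6v0d2 and Psap are farthest apart between the cell types. Each TGEM library lies above each iBMDM library in 19 of 36 members, and Lamp2, Ppt1 and Atp6v1g1 are among those that overlap.

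The pump's genes were higher in 11 of 17 cases, with a smaller median of 0.96 (11 of 16 and 1.02 without Atp6v0c-ps2), against 1.5 over the other members. With the GC trend removed 14 of 17 were higher, with a median of 1.30 against 1.63 over the other members. The V0 sector held the largest difference of all members. Atp6v0d2 read 638 and 506 RPKM in C57Bl/6EiJ TGEMs and 817, 479 and 373 in Balb/cJ TGEMs. In iBMDMs it ranged from 0 to 5.61 RPKM. The pooled read rate was 482-fold higher in C57Bl/6EiJ vehicle TGEMs than in Scramble (95% exact interval 276 to 934, 18127 against 12 reads, counting error only), and the fitted log2 fold change was 8.30 ± 0.29 (limma adjusted p = 7.63e-08). Atp6v0d1, the broadly expressed d subunit that Atp6v0d2 can replace in the pump, read 152 and 174 RPKM in C57Bl/6EiJ TGEMs, 105, 178 and 153 in Balb/cJ TGEMs, and 117 and 73.8 in Scramble (0.58 ± 0.28, limma adjusted p = 0.111). The ratio of Atp6v0d2 to Atp6v0d1 was therefore 2.43 to 7.79 in TGEMs and 0 to 0.0631 in iBMDMs. Atp6v0a1, the a subunit, stood at 153 RPKM against 41.3 and 37.5 (2.04 ± 0.23, limma adjusted p = 6.45e-05), and its iBMDM values lay between 37.1 and 41.3 throughout. Atp6v0c, which encodes the proteolipid of the pump's ring, read 94.1 RPKM against 52.0 and 27.5 and did not pass (0.96 ± 0.62, limma adjusted p = 0.23).

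In the V1 sector 6 of 8 subunits were higher, with differences of 0.57 (Atp6v1e1) to 1.40 (Atp6v1c1). With the GC trend removed 7 of 8 were higher. Atp6v1h read 80.1 RPKM against 71.6 and 85.1 and differed by 0.04 ± 0.32. Atp6v1g1 read 33.5 RPKM in C57Bl/6EiJ vehicle TGEMs and 12.4 with KLA, against 43.3 and 52.1 in Scramble (−1.15 ± 0.51, limma adjusted p = 0.0849). This fitted value takes 1 KLA effect for both strains, whereas the gene was lower with KLA in C57Bl/6EiJ and higher in both Balb/cJ libraries. Of the accessory subunits Atp6ap1 passed at 1.08 ± 0.27, and Atp6ap2, the prorenin receptor, did not (0.44 ± 0.32, limma adjusted p = 0.277). With the GC trend removed 2 of 2 accessory subunits were higher.

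Of the 9 members with CACGTG in the promoter, 8 were higher in TGEMs, with a median of 1.51, and of the 19 without it 15 were higher, with a median of 1.18. Over all models 16.1% were higher and 30.2% lower, with a median of −0.28. Other lysosomal genes, a list of 93 found in full, had 46 higher and 3 lower of 86 tested, with a median of 0.92. The largest were Acp5, the tartrate-resistant acid phosphatase, at 269.8 RPKM in the C57Bl/6EiJ vehicle library against 0 reads in 8 of 8 iBMDM libraries (at least 441-fold higher than Scramble, with 3 reads taken over that group), Pld3 (1004 against 53.6 and 34.8 RPKM) and Mcoln3 (22.7 against 1.22 and 0.344 RPKM).

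Markers of other peritoneal cells moved with this contrast. The 6 mesothelial or fibroblast markers summed to 40.4 to 81.6 RPKM in TGEMs and at most 0.532 in iBMDMs, the 4 B cell markers to 10.1 to 23.9 and at most 0.488, and the 4 mast cell markers to 1.78 to 18.6 and at most 0.549. The 4 T cell markers summed to at most 2.27 RPKM in TGEMs and the 3 dendritic cell markers to at most 1.46. The 5 neutrophil markers went the other way, at 1.10 to 13.2 RPKM in TGEMs against 33.2 and 34.8 in Scramble, though at 0 in JunDKO. The 4 eosinophil markers overlapped, at 0.804 to 4.15 RPKM in TGEMs against 1.585 and 2.557 in Scramble. The 10 macrophage markers, led by Lyz2, summed to 8128 to 11120 RPKM in TGEMs and 17120 to 33301 in iBMDMs. Adgre1, which encodes F4/80, read 60.7 RPKM in the C57Bl/6EiJ vehicle library against 669 and 744 in Scramble, whereas Cd68, a lysosomal glycoprotein of macrophages, read 2053 against 467 and 353. In bulk RNA, fewer cells of a type and less RNA per cell cannot be told apart, and the part of these markers' cells in the members' values was not tested.

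The knockouts addressed whether loss of 1 AP-1 member changes gene expression in iBMDMs. In Atf3KO against Scramble 14 of 36 members passed, 5 higher and 9 lower, beside 41.2% of all 10691 models, with 20.7% higher and 20.6% lower. The members' share was thus near the background, and their median log2 fold change was −0.03 (0.05 over all models). By role the counts were uneven. Of the 17 pump genes 0 were higher and 7 lower, with a median of −0.71 (7 of 16 and −0.67 without Atp6v0c-ps2). Of the 19 other members 5 were higher and 2 lower, with a median of 0.31. With library medians equal, 5 were higher and 10 lower beside 17.4% and 24% of all models (41.3% in either direction), and the medians over members and all models were −0.15 and −0.07. Fitted on the libraries of these 2 groups alone, 6 members passed, with Man2b1, Laptm5, Glb1 and Grn higher and Atp6v1a and Atp6ap2 lower, beside 31.2% of all models, 16% higher and 15.2% lower. The Atf3KO libraries differed in other AP-1 transcripts: Jund stood at 22.6 and 83.0 RPKM against 9.19 and 8.33 in Scramble, and Jun at 17.9 and 46.2 against 17.6 and 18.5. The higher value of each was in replicate 2, which has the later label date, and the part of these differences in the members' values was not tested.

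Hydrolases and membrane proteins led the higher side. Man2b1 read 89.7 and 117 RPKM in Atf3KO against 48.8 and 37.0 in Scramble (1.25 ± 0.21, limma adjusted p = 0.00358). Laptm5, a lysosomal membrane protein of blood cells, read 469 and 549 RPKM against 243 and 205 (1.18 ± 0.22, limma adjusted p = 0.00492). Glb1, the β-galactosidase, read 60.2 and 73.5 RPKM against 34.9 and 23.8 (1.18 ± 0.24, limma adjusted p = 0.00667), though 7.3% of its exonic bases are shared with Tmppe on the same strand. Grn read 557 and 644 RPKM against 306 and 248 (1.12 ± 0.22, limma adjusted p = 0.00587). In each of these 4 genes both Atf3KO libraries lay above both Scramble libraries. Groups did not overlap in 23 of 36 members and in 70.8% of all models. Mcoln1 also passed, at 23.1 and 24.8 RPKM against 14.1 and 13.5 (0.75 ± 0.20, limma adjusted p = 0.0187).

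The lower side was made up of the pump, Lamp2 and Gla. Of 8 V1 subunits 5 were lower, beside 20.6% of all models, with a median over the sector of −0.75. Atp6v1a, the catalytic A subunit, read 93.9 and 77.7 RPKM against 145 and 169.7 (−0.87 ± 0.18, limma adjusted p = 0.00814), and Atp6v1c1, Atp6v1d, Atp6v1e1 and Atp6v1h differed by −0.79, −0.71, −0.62 and −0.90. Atp6v1f, at 35.0 and 54.5 RPKM against 98.5 and 66.7, missed the threshold (−0.88 ± 0.31, limma adjusted p = 0.0512). The summed RPKM of the sector was 574 and 472 in Atf3KO against 832 and 812. Atp6ap2 read 36.5 and 27.2 RPKM against 60.0 and 86.8 (−1.17 ± 0.30, limma adjusted p = 0.0162). Lamp2 read 173 and 110.3 RPKM against 232 and 233 (−0.75 ± 0.24, limma adjusted p = 0.0356), while Lamp1 read 479 and 470.1 against 515 and 424 (0.02 ± 0.18). Gla read 14.1 and 12.8 RPKM against 24.5 and 19.7 (−0.67 ± 0.19, limma adjusted p = 0.0242).

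In the V0 sector 1 of 7 members passed, beside 41.2% of all models. This was Atp6v0d2, with 0 reads in both Atf3KO libraries against 4 and 8 reads in Scramble, at least 12.8-fold lower with 3 reads taken over the Atf3KO group (limma adjusted p = 0.0235). It met the filter of a mean of 1 RPKM only through the JunDKO libraries of the same fit. With the 2 compared groups alone it was not tested. Atp6v0d1 read 84.1 and 104 RPKM against 117 and 73.8 (0.01 ± 0.24), and Atp6v0c 14.5 and 34.0 against 52.0 and 27.5 (−0.74 ± 0.59). Whether V0 and V1 differ in their response was not tested.

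GC content moved with these values. Across 35 members with a RefSeq transcript, Spearman's rho between GC percent and the Atf3KO log2 fold change was 0.62, and it was 0.50 across 10583 models, as a description over genes that share libraries. The 9 lower members had transcripts of 40.9% to 48.6% GC and the 5 higher ones 53.2% to 56.1%, and V1 genes had a median of 47.4% against 49.2% over all models. With the GC trend of each library removed, 6 members were higher and 4 lower beside 41.1% of all models, 21.7% higher and 19.4% lower, and the median log2 fold change was −0.40 over the pump genes, −0.42 over V1 and 0.18 over the other 19 members. Man2b1, Laptm5, Glb1 and Grn passed at 0.98, 0.73, 0.91 and 0.61, joined by Asah1 (0.97, limma adjusted p = 0.00113) and Tpp1 (0.73, limma adjusted p = 0.0128). The 4 lower were V1 subunits: Atp6v1f (−1.19), Atp6v1e1 (−0.49), Atp6v1a (−0.44) and Atp6v1c1 (−0.44). The other 7 no longer passed, namely Lamp2, Gla, Mcoln1, Atp6ap2, Atp6v0d2, Atp6v1d and Atp6v1h, with limma adjusted p of 0.0659 (Atp6v1d) to 0.337 (Lamp2). With either Scramble library or Atf3KO replicate 2 left out, fewer members passed, and more were lost on the lower side than on the higher side. The share of all models that were lower fell too, but by a smaller part than that of the members.

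**Figure D3:**
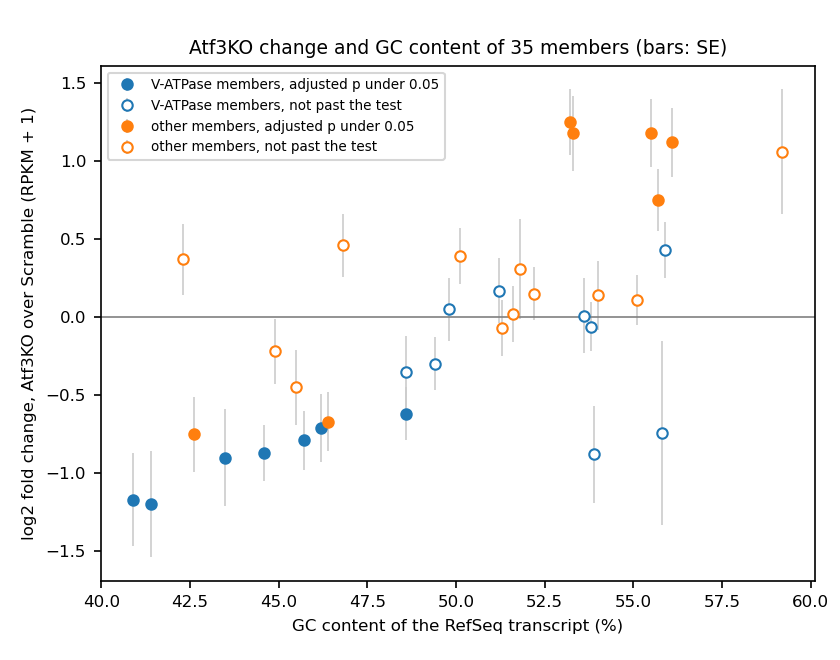
log2 fold change of Atf3KO over Scramble (RPKM + 1, bars are SE) against the GC percent of the transcript for 35 members, blue for V-ATPase and orange for other members, filled where the adjusted p is under 0.05. The 9 lower members lie at 40.9% to 48.6% GC and the 5 higher ones at 53.2% to 56.1%.

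With the added limits of a 2-fold change and a mean of 16 RPKM in either group, 5 members stayed in the count for Atf3KO, Man2b1, Laptm5, Glb1 and Grn higher and Atp6ap2 lower, beside 12.5% of all models. The same limits left 25 in TGEMs against iBMDMs (21.1% of all models), 0 in JunKO (0.196%), 1 in JunDKO, namely Man2b1 (4.97%), 1 in JunDKO against Atf3KO, namely Atp6v1f (12.2%), 0 in JunDKO against JunKO (3.5%), 0 with KLA (1.13%) and 2 between strains (1.16%).

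Of the other lysosomal genes, 23 were higher and 7 lower in Atf3KO of 82 tested, beside 20.7% and 20.6% of all models, with a median of 0.23. The largest were Sgsh, which cuts sulfate from heparan sulfate (16.4 and 17.8 RPKM against 3.84 and 2.17, 2.21 ± 0.29, limma adjusted p = 0.0014), the phospholipase gene Pla2g15 (37.5 and 38.2 against 12.1 and 9.74 RPKM, 1.71 ± 0.19) and Naglu, another enzyme of heparan sulfate breakdown (30.3 and 51.1 against 16.4 and 11.1 RPKM, 1.48 ± 0.34).

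In JunKO 0 of 36 members passed in limma, and 0.281% of all models did, 0.159% higher and 0.122% lower. At an unadjusted p under 0.05 the count over all models was 842 (7.88%), and limma-voom on recovered reads also gave 0 members. The members' median was −0.09. The largest differences were those of Lipa, at 191 and 225 RPKM against 347 and 368 (−0.78 ± 0.24, limma adjusted p = 0.394), and Atp6v0d2, with 1 and 2 reads against 4 and 8 (a pooled rate 3.76-fold lower, 95% exact interval 1.01 to 20.7, limma adjusted p = 0.64). The JunKO and Scramble libraries of Lipa did not overlap, which was so for 12 of 36 members and 37.2% of all models. Lamp1 read 480 and 405 RPKM in JunKO (−0.08 ± 0.18) and Lamp2 190 and 244 (−0.11 ± 0.24), and both overlapped with Scramble. Of the V0 genes, Atp6v0d1 read 102 and 84.6 RPKM (0.00 ± 0.24) and Atp6v0c 49.1 and 20.9 (−0.23 ± 0.59). With the replicate number as a block and the Atf3KO libraries left out, a setting added after the data were seen, Lipa passed (limma adjusted p = 0.0148), 1 of 36 members beside 1.32% of all models, 0.664% higher and 0.655% lower. Of 82 other lysosomal genes 0 passed.

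In JunDKO 2 of 36 members passed, both higher and 0 lower, beside 11.7% of all models, 6.93% higher and 4.82% lower. Atp6v0d2 had 20 and 258 reads, or 5.17 and 5.61 RPKM, against 4 and 8 reads, or 0.831 and 1.88 RPKM. It met the filter of a mean of 1 RPKM only through the JunDKO libraries, where it is high. Its entry into the iBMDM tests therefore depended on the group in which it passed. The pooled read rate was 4.22-fold higher (95% exact interval 2.38 to 8.26), and the fitted log2 fold change was 1.48 ± 0.34 (limma adjusted p = 0.0273). The JunDKO values were close although the libraries held 1553296 and 18444411 reads. Man2b1 read 91.8 and 86.5 RPKM against 48.8 and 37.0 (1.05 ± 0.21, limma adjusted p = 0.0164). With JunDKO replicate 1 or 2 left out 0 members passed (3.83% and 3.85% of all models), with Scramble replicate 1 or 2 left out 1 did (5.45% and 4.85%), and with Atf3KO replicate 1 or 2 left out 4 did (14% and 14.1%). With the replicate number as a block and the Atf3KO libraries left out, again an added setting, 14 passed, 10 higher and 4 lower, beside 24.8% of all models, 16.8% higher and 8.07% lower. The members' median was 0.05 against 0.23 over all models. With library medians equal those medians were −0.23 and −0.04, 3.21% of all models were higher and 7.22% lower, Man2b1 passed at 0.77, Lipa was lower at −1.11 and Atp6v0d2 was at 1.20 (limma adjusted p = 0.0703).

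**Figure D4:**
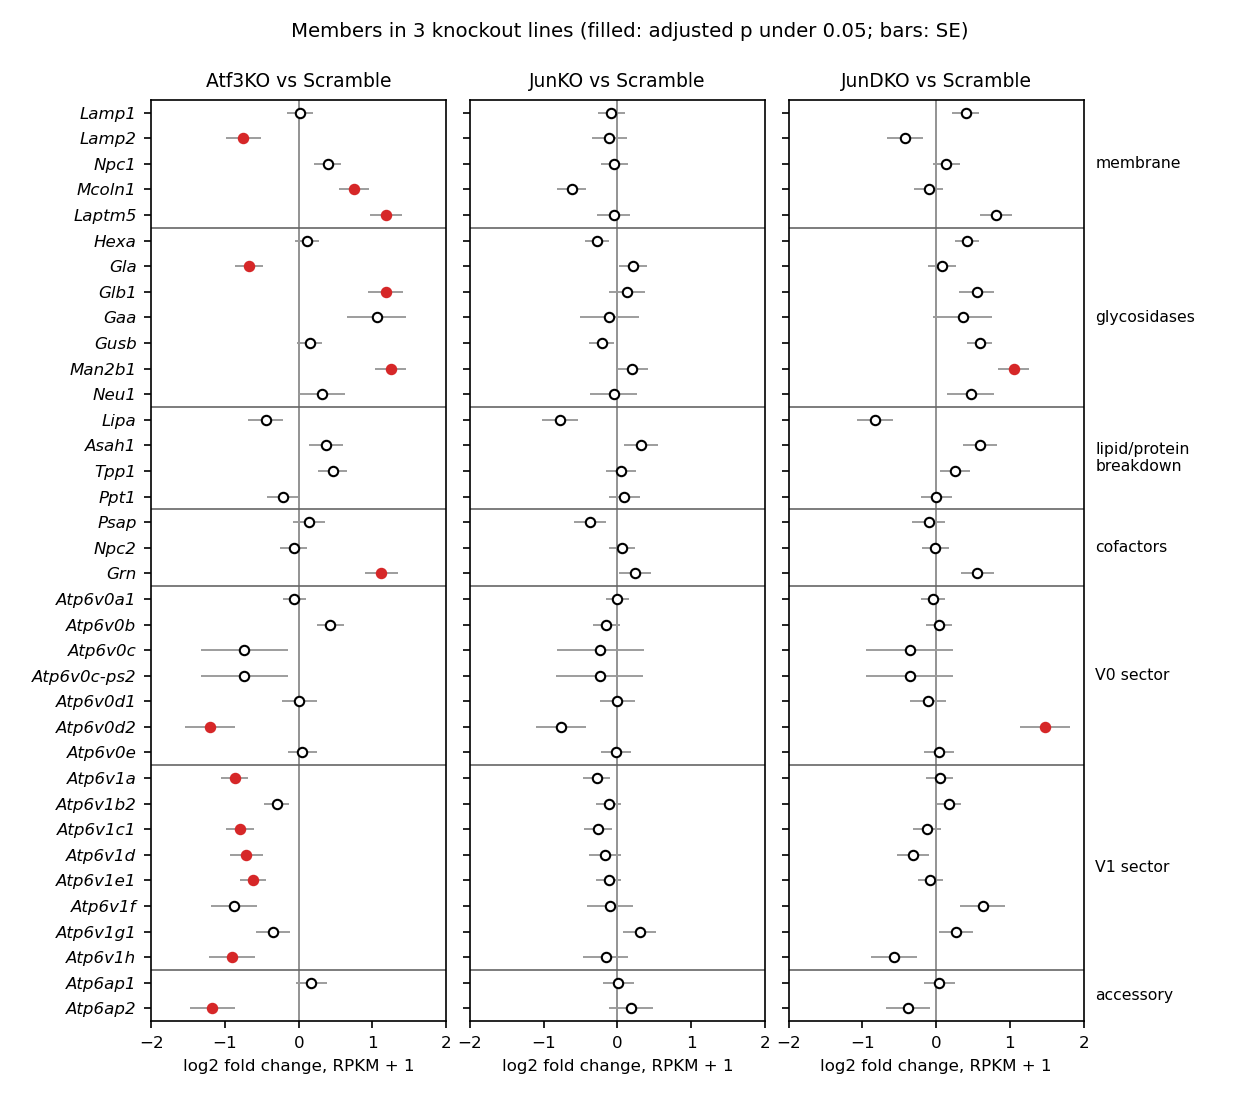
log2 fold change (RPKM + 1) of each member against Scramble in Atf3KO, JunKO and JunDKO, with SE as bars and filled points where the limma adjusted p is under 0.05. Of 36 members 14 are filled for Atf3KO, 0 for JunKO and 2 for JunDKO, and in Atf3KO the V1 sector lies left of 0.

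Laptm5 lay just outside at 419.8 and 366 RPKM against 243 and 205 (0.81 ± 0.22, limma adjusted p = 0.05 after rounding). Lipa read 192 and 209 RPKM against 347 and 368 (−0.83 ± 0.24, limma adjusted p = 0.0622), near its JunKO values of 191 and 225 RPKM. Lamp1 read 666 and 572 RPKM and Lamp2 164 and 183, at 0.40 and −0.42, which did not pass (limma adjusted p = 0.197 and 0.287). Each passed in 2 of 19 alternatives, among them the block without the Atf3KO libraries (limma adjusted p = 0.00634 and 0.0306). In the V0 sector Atp6v0d1 read 83.3 and 88.9 RPKM (−0.11 ± 0.24) and Atp6v0c 46.1 and 18.5 (−0.36 ± 0.59). The V1 subunits as a group had a median of −0.01. Neutrophil markers moved with this contrast: the 5 listed summed to 33.2 and 34.8 RPKM in Scramble, all of it S100a8, and to 0 in JunDKO. The 4 eosinophil markers went the other way, at 1.585 and 2.557 RPKM in Scramble and 6.02 and 6.15 in JunDKO, mostly Ccr3. The part of either list in the values was not tested. Among 82 other lysosomal genes 11 were higher and 3 lower, among them Sgsh (20.4 and 13.7 RPKM, 2.18 ± 0.29) and Pla2g15 (43.2 and 41.2 RPKM, 1.86 ± 0.19).

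The knockouts share the Scramble libraries, so they were also set against each other. Between JunDKO and Atf3KO 7 members passed, 6 higher and 1 lower in JunDKO, beside 40.7% of all models, 25.9% higher and 14.9% lower. Atp6v0d2 was higher by 2.67 ± 0.34 (limma adjusted p = 8.70e-04), with 278 reads against 0, at least 53.9-fold higher with 3 reads taken over the Atf3KO group. The V1 genes Atp6v1f (152 and 104 RPKM against 35.0 and 54.5, 1.51 ± 0.31, limma adjusted p = 0.0065), Atp6v1a (155 and 171 against 93.9 and 77.7, 0.92 ± 0.18, limma adjusted p = 0.00589) and Atp6v1c1 (89.6 and 88.2 against 65.0 and 47.5, 0.67 ± 0.19, limma adjusted p = 0.0266) were higher, as were Atp6v1e1 and Gla. Mcoln1 was lower, at 14.6 and 11.3 RPKM against 23.1 and 24.8 (−0.85 ± 0.20, limma adjusted p = 0.0116). Lamp1, Lamp2, Atp6v0c and Atp6v0d1 did not pass, at 0.38, 0.33, 0.38 and −0.12. With library medians equal the split was 4 higher and 4 lower, beside 41% of all models, 21.2% higher and 19.8% lower. With the GC trend removed it was 5 and 6, beside 42%, 19.9% higher and 22.1% lower. In either case Atp6v0d2, Atp6v1a and Atp6v1f were higher and Mcoln1 lower. GC content and these differences had a rho of −0.57 over 35 members. The other lysosomal genes had 16 higher and 9 lower, led by Rragb (161 reads against 0, at least 31.2-fold higher), Tmem175 (9.16 and 8.46 against 2.08 and 3.18 RPKM) and Igf2r, a receptor that delivers hydrolases (8.48 and 7.17 against 22.7 and 22.2 RPKM). Rragb, like Atp6v0d2, met the filter of a mean of 1 RPKM only through the JunDKO libraries, where it is high. Leaving out JunDKO replicate 1 or 2 left 3 or 2 members (23.6% and 20.1% of all models), and leaving out Atf3KO replicate 1 gave 14 (41%). The neutrophil marker S100a8 moved with this contrast as well, at 41.1 and 21.8 RPKM in Atf3KO and 0 in JunDKO. The 4 eosinophil markers went the other way, at 0 RPKM in Atf3KO and 6.02 and 6.15 in JunDKO, and the part of either was not tested.

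Between JunDKO and JunKO 4 members were higher and 0 lower, beside 8.14% of all models, 4.33% higher and 3.81% lower. Atp6v0d2 was higher by 2.25 ± 0.34 (limma adjusted p = 0.00607), 278 reads against 3, and was again in the test only through the JunDKO libraries. The others were glycosidases: Man2b1 (0.85 ± 0.21, limma adjusted p = 0.0478), Gusb at 301 and 305 against 187 and 161 RPKM (0.80 ± 0.17, limma adjusted p = 0.025) and Hexa at 252 and 252 against 159 and 151 RPKM (0.70 ± 0.16, limma adjusted p = 0.0328). Lamp1, Lamp2, Atp6v0c and Atp6v0d1 did not pass, at 0.48, −0.31, −0.13 and −0.11. S100a8 moved with this contrast too, at 22.7 and 24.1 RPKM in JunKO and 0 in JunDKO. The 4 eosinophil markers went the other way, at 3.41 and 5.18 RPKM in JunKO and 6.02 and 6.15 in JunDKO, and the part of either was not tested. The median over all models was 0.23 (−0.02 with library medians equal, where 2.13% were higher and 5.76% lower), and with library medians equal Atp6v0d2 alone passed, as it did when any 1 JunDKO or JunKO library was left out (2.13% to 3.74% of all models). Without Scramble replicate 1 or 2, 2 members passed (5.92% and 5.79%). With the replicate number as a block 3 passed (6.39%) and Man2b1 did not (limma adjusted p = 0.074). With the Atf3KO libraries also left out, 12 passed, 10 higher and 2 lower, beside 20.6% of all models, 13.5% higher and 7.1% lower. Of 82 other lysosomal genes 11 were higher and 2 lower, among them Igf2r (−1.65 ± 0.20) and Sgsh (1.40 ± 0.29).

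The next question was whether 1 h of TLR4 activation changes lysosomal transcripts in TGEMs. With strain in the fit, 0 of 36 members passed in limma, and 1.53% of 10357 models did, 1.29% higher and 0.232% lower, while 15% had an unadjusted p under 0.05. In each of 14 alternatives, limma-voom on reads among them, 0 members passed as well. The median over members was 0.01 and over all models −0.15, or 0.14 and −0.01 with library medians equal. The largest differences were those of Lamp2 and Atp6v0d2. Lamp2 read 234 RPKM with vehicle and 224 with KLA in C57Bl/6EiJ, and 478 with vehicle and 191 and 168 with KLA in Balb/cJ (−0.83 ± 0.35, limma adjusted p = 0.33). Atp6v0d2 read 638 and 506 RPKM in C57Bl/6EiJ, and 817 with vehicle and 479 and 373 with KLA in Balb/cJ (−0.69 ± 0.29, limma adjusted p = 0.327). Both were lower in 3 of 3 KLA libraries against the vehicle library of the strain. Lamp1 differed by −0.11 ± 0.25 and Atp6v0d1 by 0.45 ± 0.27, with limma adjusted p of 0.867 and 0.458. Atp6v0c differed by −0.27 in C57Bl/6EiJ, 94.1 RPKM with vehicle and 77.8 with KLA. Its pooled fit of 0.40 ± 0.31 (limma adjusted p = 0.57) has the opposite sign and draws on Balb/cJ libraries with 0 reads with vehicle and 16 and 7 with KLA.

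Within C57Bl/6EiJ, whose 2 libraries share a label date, the KLA difference was within 0.5 log2 units of 0 in 35 of 36 members, beside 70.1% of all models. The exception was Atp6v1g1, with 44 reads in the KLA library. Within Balb/cJ and 1 label date it was within 0.5 in 21 of 36, beside 61% of all models. All 3 within-strain differences were positive for 5 members (Glb1, Gaa, Grn, Atp6v0d1 and Atp6v1h) and negative for 8 (Lamp2, Lipa, Neu1, Asah1, Tpp1, Atp6v0d2, Atp6v1c1 and Atp6v1d), beside 13.7% and 34.3% of all models, so these counts do not set the members apart. The Balb/cJ differences share 1 vehicle library of 2342455 reads, so they are not independent. Across 35 members the KLA difference and GC content had a rho of 0.64 (0.20 over all models), and 0 members passed with the GC trend removed. The difference of KLA effects between strains, tested as an interaction with 1 residual degree of freedom, passed for 0 of 36 members and 0% of models, with 8.06% at an unadjusted p under 0.05. Its largest values were those of Atp6v1g1 (2.32 ± 0.60, limma adjusted p = 0.514) and Lamp2 (−1.35 ± 0.55, limma adjusted p = 0.632). Lamp1, Atp6v0d1, Atp6v0d2 and Atp6v0c stood at −0.35, 0.46, −0.62 and 1.17 in this term, that of Atp6v0c again from these few reads.

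Between strains, 2 of 36 members (1 of 35 without Atp6v0c-ps2) passed, both lower in Balb/cJ, beside 2.31% of all models, 0.859% higher and 1.45% lower. They are Atp6v0c and its listed pseudogene Atp6v0c-ps2. On build mm10 the 2 models lie at chr17:24163866-24169429 and chr17:24163865-24169395 on the same strand, and their reads differed by 0 to 3 in each library, so they are counted from the same reads and are 1 measurement. Atp6v0c stood at 94.1 and 77.8 RPKM in C57Bl/6EiJ TGEMs and at 0, 0.810 and 0.928 in Balb/cJ TGEMs. Pooled, these were 1520 reads against 23, a 118-fold lower rate (95% exact interval 78.3 to 187), and between the vehicle libraries the rate was at least 84.2-fold lower. The fitted log2 fold change was −5.90 ± 0.31 (limma adjusted p = 4.76e-04), and it passed in 13 of 13 alternatives. The C57Bl/6EiJ-derived iBMDM libraries, with 14.5 to 52.0 RPKM, lay between the strains without overlap.

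**Figure D5:**
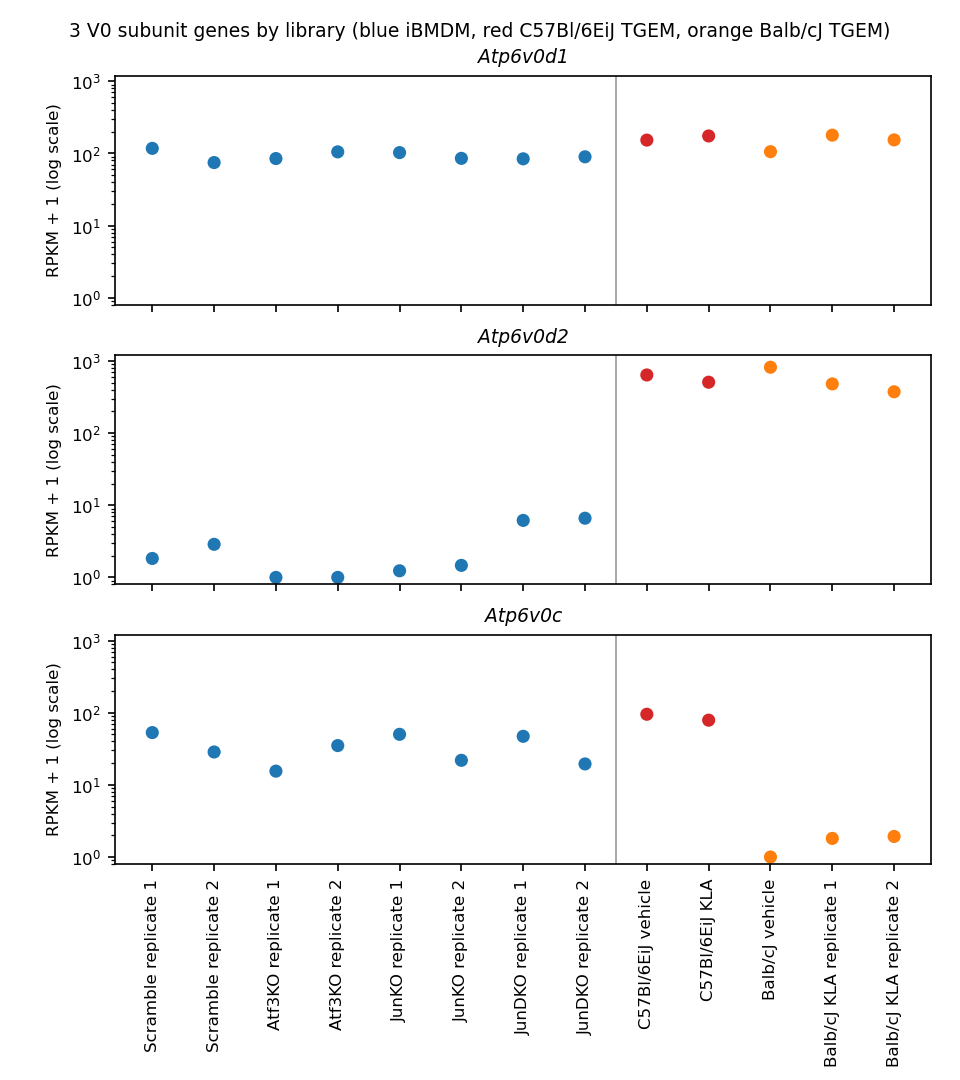
RPKM + 1 on a log scale in each of 13 libraries for 3 genes of the V0 sector, blue for iBMDM, red for C57Bl/6EiJ TGEM and orange for Balb/cJ TGEM. Atp6v0d1 spans 73.8 to 178 RPKM, Atp6v0d2 is at 5.61 RPKM or less in iBMDMs and at 373 or more in TGEMs, and Atp6v0c is under 1 RPKM in the 3 Balb/cJ libraries.

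Such a pattern was rare. Of 2781 models at 16 RPKM or more in both C57Bl/6EiJ TGEM libraries, 3 were under 1 RPKM in each Balb/cJ library, namely Atp6v0c, Atp6v0c-ps2 and Mir7009. The neighbouring Amdhd2 stood at 38.0 to 73.2 RPKM in Balb/cJ and 69.0 and 80.8 in C57Bl/6EiJ, and Tbc1d24 at 2.23 to 2.99 and 2.79 and 2.83. Balb/cJ reads were aligned to a separate genome made for that strain, and strain, label date and alignment genome cannot be told apart. Spearman's rho between GC percent and the strain difference was −0.45 over 35 members and −0.45 over 10254 models. The other ring gene, Atp6v0b, read 156, 277 and 340.2 RPKM in Balb/cJ against 520.0 and 416 (−0.99 ± 0.35, limma adjusted p = 0.171).

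The other 34 members did not pass between strains. Atp6v0d2 differed by 0.00 ± 0.29, Lamp1 by −0.15 ± 0.25, Lamp2 by 0.26 ± 0.35 and Atp6v0d1 by −0.27 ± 0.27. Beside Atp6v0b, the largest of these were Glb1 (−0.99 ± 0.29, limma adjusted p = 0.121), Ppt1 (0.88 ± 0.36, limma adjusted p = 0.216) and Atp6v1b2 (−0.82 ± 0.29, limma adjusted p = 0.171). When the 8 iBMDM libraries shared the estimate of spread, Glb1, Atp6v1b2 and Npc1 passed as well, while the share over all models rose to 7.26%. Of 86 other lysosomal genes 3 were higher and 3 lower in Balb/cJ. The largest were the channel gene Mcoln3 (2.01, 1.26 and 1.79 against 22.7 and 27.9 RPKM, −3.29 ± 0.26, limma adjusted p = 0.00152), the pump gene Atp6v0e2 (5.37, 14.4 and 11.9 against 0.240 and 0.504 RPKM, 2.86 ± 0.29, limma adjusted p = 0.00525) and the sulfatase gene Arsb (83.7, 54.2 and 38.6 against 10.5 and 10.4 RPKM, 2.39 ± 0.31, limma adjusted p = 0.0119).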

How the data were processed

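PolyA RNA-seq of 13 libraries was analysed. Per the labels and methods, the authors aligned reads with STAR (Balb/cJ reads to a genome of that strain), counted exons with HOMER on mm10 and deposited RPKM, under column names that say FPKM. Tool versions and the strand setting were not given in the sources used here. Here, RPKM steps gave whole reads for 100% of values up to 50 reads (tolerance 0.05). limma 3.58.1 (R 4.3.3) was fitted to log2(RPKM + 1) with trend, two-sided, over models averaging 1 RPKM or more in the libraries fitted, with Benjamini-Hochberg adjustment over all models tested. The iBMDM, TGEM, interaction and 13-library fits left 4, 2, 1 and 6 residual degrees of freedom. edgeR, which the authors used, was not run, and limma-voom on the recovered reads was the count-based alternative. The script was tested on simulated data. Named members were the 6 largest changes past the test in each comparison, or the 2 largest where none passed, plus Lamp1, Lamp2, Atp6v0d1, Atp6v0d2 and Atp6v0c throughout and, of the other lysosomal genes, the 3 largest, of which 1 gene is not reported here. Further members were named after their values were seen. Members and lists were chosen with earlier results of these data known. Intervals and bounds cover counting error only. Columns of other samples numbered 0.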

Additional observations from a re-analysis of the deposited data

How the results depend on the processing

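Each count of members past the test was recomputed under other settings, given here with the share of all models past the test in parentheses. In Atf3KO against Scramble the count of 14 (41.2%) was 6 (31.2%) with the compared groups alone and 5 (12.5%) with limits of 2-fold and 16 RPKM added. In JunDKO against Scramble the count of 2 (11.7%) was 1 (10.9%) with a pseudocount of 0.1, 5 (10.6%) with quantile normalization, 6 (16.9%) with the GC trend removed, 5 (13.2%) with the compared groups alone, 5 (14.6%) without the Atf3KO libraries and 1 (4.97%) with the 2-fold and 16 RPKM limits. In JunDKO against Atf3KO the count of 7 (40.7%) was 11 (37.8%) with quantile normalization, 14 (54%) with limma-voom on reads, 11 (42%) with the GC trend removed and 1 (12.2%) with the 2-fold and 16 RPKM limits, and Asah1 went from 0.23 to −0.49 (limma adjusted p = 0.016) with the GC trend removed. In JunDKO against JunKO the count of 4 (8.14%) was 1 (7.89%) with equal library medians, 2 (8.37%) with limma-voom and 0 (3.5%) with the 2-fold and 16 RPKM limits. Between strains the count of 2 (2.31%) was 5 (7.26%) with all 13 libraries in 1 fit. The cause of these shifts was not tested.

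Leaving out 1 library at a time gave counts of 4 to 15 for Atf3KO (19.5% to 41.3%), 0 to 0 for JunKO (0.122% to 0.252%), 0 to 4 for JunDKO (3.83% to 14.1%), 2 to 14 for JunDKO against Atf3KO (20.1% to 41%), 1 to 4 for JunDKO against JunKO (2.13% to 10.5%), 0 to 0 for KLA (0.272% to 1.44%), 2 to 2 for strain (0.308% to 3.82%) and 18 to 29 for TGEM against iBMDM (25.5% to 47.6%). A lone library was taken to vary like the other groups, and the interaction could not be refitted for want of residual degrees of freedom. Over single members and settings, 4972 values kept their side of the threshold, of which 295, none past it, changed sign. A further 106 passed anew, 139 no longer passed and 1 reversed. With the replicate number as a block the counts were 12 for Atf3KO (38.5%), 0 for JunKO (0.131%), 2 for JunDKO (9.74%), 7 for JunDKO against Atf3KO (38.5%) and 3 for JunDKO against JunKO (6.39%). The numbers are not a pairing by the labels. Deviations of same-numbered libraries correlated at 0.18 to 0.22 among Scramble, JunKO and JunDKO, which share a label date, and at −0.21 to −0.12 between these and Atf3KO. The block without the Atf3KO libraries, chosen after seeing the data, gave counts of 1 for JunKO (1.32%), 14 for JunDKO (24.8%) and 12 for JunDKO against JunKO (20.6%), where the block with all 4 groups gave 0, 2 and 3. TGEM titles carry no replicate numbers, and with label date, which 1 vehicle and 1 KLA library share in each strain, as the block in place of strain the KLA count was 0 (0.686%).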
